A study of Mus musculus with 2 samples.

Results

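The genes described here are 10 classical markers of hypertrophy and of the fetal stress programme of the heart, *Nppa*, *Nppb*, *Acta1*, *Myh7*, *Ankrd1*, *Csrp3*, *Xirp1*, *Xirp2*, *Edn1* and *Rcan1*. They were taken by gene name from all non-control probes of a mouse expression microarray, which gave 13 probes among the probes of 37074 gene names. RNA came from MCMs, mouse cardiomyocytes bought as a cultured product, passaged and kept in low-serum medium. The siRNA-NC culture received a negative control siRNA, and the siRNA-*Ppp2r5d* culture received an siRNA against *Ppp2r5d*, a regulatory subunit of protein phosphatase 2A. Both were moved to medium without glucose at 48 h and harvested at 64 h after transfection, and both arrays lay on 1 slide. The strain and age of the source animals are not given in the sources used here. The cells are 1 commercial product, so each value describes that product and not a heart. Each condition has 1 array, so no value below has a spread between cultures and no p-value was computed.

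An adult heart under pressure, stretch or neurohormonal load is known to switch on genes that were active in the fetal ventricle. Natriuretic peptides are secreted and act through cGMP, fetal contractile isoforms replace part of the adult ones, and proteins of the Z-disc and of the ends of the myofibril report stretch. Endothelin is a ligand that drives growth of myocytes, and calcineurin, a calcium-dependent phosphatase, acts on NFAT factors and induces its own regulator *Rcan1*.

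Intensities below are given as a pair, siRNA-NC first and siRNA-*Ppp2r5d* second. The target of the siRNA, *Ppp2r5d*, went from 4701 to 676.1 and was 6.09-fold lower after scaling. Intensities were scaled by each array's own 75th percentile, 591.9 and 518.3. A probe was taken as measured where the scanner software marked it well above background, and the lowest intensity so marked was 14.91 and 13.47. Markers of the labelled cell type were detected in part. Of 10 cardiomyocyte markers, 4 (*Tnnt2*, *Tnni3*, *Nkx2-5* and *Ttn*) passed this mark on both arrays, while *Myl2*, *Actn2* and *Pln* were well above background on neither. *Myh6*, the main myosin of the adult mouse ventricle, read 12.38 and 14.25, *Ryr2*, the calcium release channel, 8.087 and 19.25, and *Mybpc3*, a myosin-binding protein, 3.225 and 14.16. These 3 passed on the siRNA-*Ppp2r5d* array alone, whose limit was the lower one before scaling. On it *Myh6* and *Mybpc3* read under the siRNA-NC limit of 14.91, and *Ryr2* read above it. The lower bounds on their log2 fold changes were 0.13, 0.56 and 0.12 in that order. Among 9 fibroblast markers, 7 passed on both arrays, the collagen genes *Col1a1* and *Col1a2* included, and *Tcf21* and *Thy1* on neither. Among all 37000 genes with a kept probe, 20311 passed on both arrays and 15362 on neither. For lists this short, these counts alone do not settle which cells were present. With bulk RNA, a change in the share of cells of a type and a change in RNA per cell cannot be told apart.

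Atrial and brain natriuretic peptide, encoded by *Nppa* and *Nppb*, are the secreted hormones of the programme. Both genes were close to the limit of detection on both arrays. *Nppa* has a probe that starts at base 676 of its transcript (mm9 chr4:147376024-147376083), which read 16.59 and 22.38. The log2 fold change after scaling was 0.62, with an error of 0.38 propagated from the scanner software's error of each spot. The other *Nppa* probe, starting at base 544 (chr4:147375892-147375951), had 8.354 and 9.081 and was not well above background on either array. Both *Nppa* probes were thus brighter after siRNA-*Ppp2r5d*, but the log2 fold change of the second, 0.31, was smaller than its scanner error of 0.72.

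The probes of *Nppb* did not point the same way. The probe at base 713 (chr4:147361247-147361306) read 17.06 and 23.89, a log2 fold change of 0.68 with a scanner error of 0.37. The probe at base 398 (chr4:147360489-147360548) read 13.62 and 6.968, a log2 fold change of -0.78 with a scanner error of 0.68, and was not well above background on either array. Its 60 bases are shown because this probe carries the disagreement, and none of their 3 sense reading frames holds a stop codon.
*Nppb* probe at base 398: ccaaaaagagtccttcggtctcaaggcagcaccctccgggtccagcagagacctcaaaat
Both probes are annotated to the same 2 RefSeq transcripts of *Nppb*. If dim probes were used as given, the gene had a log2 fold change of -0.049, so the sign of *Nppb* rested on which probe was counted.

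**Figure D1:**
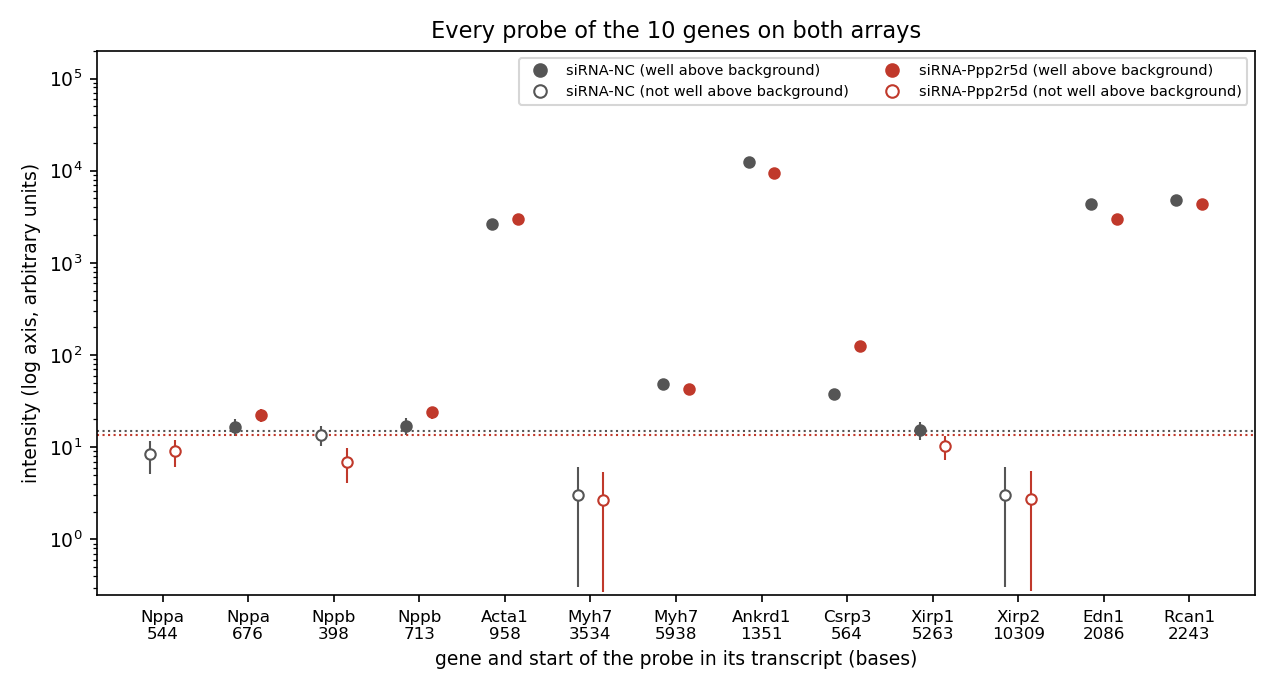
Intensity (log axis) of the 13 probes of the 10 genes on the siRNA-NC array (grey) and the siRNA-*Ppp2r5d* array (red), with the start of each probe in its transcript under the gene name. Filled points are well above background, open points are not, bars are the scanner software's error of a spot (cut short where it reaches the signal), and dotted lines mark the lowest intensity well above background, 14.91 and 13.47. *Acta1*, *Ankrd1*, *Edn1* and *Rcan1* are far above these lines, while *Nppa*, *Nppb* and *Xirp1* lie next to them.

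Of the fetal contractile isoforms, *Acta1* encodes skeletal alpha-actin, which the fetal and the loaded ventricle express beside cardiac actin. Its probe (base 958, mm9 chr8:126416197-126416256) read 2636 and 2980. The log2 fold change was 0.37 with a scanner error of 0.20, or 1.29-fold, and it was above 0 in all 10 alternatives run, from 0.19 with spike-in scaling to 0.40. Those that change the filter on dim spots, keep outliers or take the brightest probe could hardly move this 1 bright probe, and gave 0.37. *Myh7* encodes the beta myosin heavy chain, the slow isoform of the fetal mouse ventricle. Its probe at base 5938 (chr14:55589581-55589640) had 48.15 and 42.82, a log2 fold change of 0.022 after scaling, which became -0.16 with spike-in scaling. Its second probe, at base 3534 of a separate Ensembl transcript (chr14:55600186-55600245), was at the floor value that the software puts in for spots without signal, 3.049 and 2.675. The *Myh7* difference was smaller than the scanner error of 0.24.

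*Csrp3* encodes muscle LIM protein, a Z-disc and nuclear protein of striated muscle that takes part in stretch sensing. It was the 1 gene of the 10 past 2-fold. The intensity went from 37.67 to 125.9, a log2 fold change of 1.93 with a scanner error of 0.24, or 3.82-fold. Among the 20311 genes well above background on both arrays it had the 16th highest fold change. The value rests on 1 spot of 1 probe, which starts at base 564 and is annotated to both curated RefSeq transcripts of the gene. The scanner file places its 60 bases over chr7:56086063-56087977 of mm9, an interval of 1915 bases on the minus strand. The bases of the probe are therefore not contiguous in the genome.
*Csrp3* probe at base 564: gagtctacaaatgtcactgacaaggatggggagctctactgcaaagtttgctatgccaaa
No other probe on the array has this sequence. *Csrp3* was 2-fold or more higher in all 10 alternatives of scaling and filtering. Its log2 fold change ran from 1.07 after normexp correction, which adds an offset to each intensity, to 1.98 after cyclic loess. Both filters on dim spots, outliers kept and the brightest probe left it at 1.93. Its only probe was well above background on both arrays and no outlier, so these settings could hardly move it. Quantile normalization and the authors' log2 values, which are nearly the same, both gave 1.97.

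*Csrp1* and *Csrp2*, paralogs of *Csrp3*, had log2 fold changes of -0.15 and -0.31. *Ankrd1* encodes CARP, a titin-associated repressor that moves between sarcomere and nucleus and is known to be induced by stretch. Its probe (base 1351, mm9 chr19:36186809-36186868) read 12380 and 9322, far above background on both arrays. The log2 fold change was -0.22 with a scanner error of 0.20, and it was below 0 in all 10 alternatives, down to -0.40 with spike-in scaling. The filters on dim spots, outliers kept and the brightest probe could hardly move this 1 bright probe either, and gave -0.22.

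*Xirp1* and *Xirp2* encode the Xin repeat proteins of the intercalated disc. *Xirp1* (base 5263, mm9 chr9:119923389-119923448) had 15.45, just above the limit, and then 10.20, below it. The bound on its log2 fold change was -0.0064, so no fall of a measurable size can be stated. *Xirp2* (base 10309, chr2:67363002-67363061) was at the software's floor on both arrays, 3.030 and 2.753, and has no fold.

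*Edn1* encodes endothelin 1, a peptide ligand made by endothelium and by myocytes. It read 4347 and 3002 (base 2086, mm9 chr13:42403101-42403160). The log2 fold change was -0.34 with a scanner error of 0.20, or 1.27-fold lower, and ran from -0.52 to -0.31 over the alternatives. As for *Acta1*, the filters on dim spots, outliers kept and the brightest probe could hardly move this 1 bright probe, and gave -0.34. *Rcan1*, the feedback inhibitor of calcineurin, had 4801 and 4374 (base 2243, chr16:92392242-92392301), a log2 fold change of 0.057 with a scanner error of 0.20. Under spike-in scaling *Rcan1* had -0.12, and cyclic loess also gave a value below 0. Its probe is annotated to both curated RefSeq transcripts, and the calcineurin-driven isoform of *Rcan1* was therefore not measured apart from the other.

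As a group, 8 of the 10 genes passed the background limit on both arrays, *Xirp1* on the siRNA-NC array alone and *Xirp2* on neither. Of the 8 values, 6 were above 0 and 2 below, with a median log2 fold change of 0.21. Over all 20311 genes measured on both arrays, 10962 were above 0 and 9349 below, with a median of 0.025. The split of the 8 genes was 5 to 3 with cyclic loess and 4 to 4 with spike-in scaling. With the latter their median was 0.0355, while the median of all genes moved to -0.15. With dim probes counted, the medians of members and of all genes were nearly equal, 0.0331 and 0.0328 without a filter and 0.0225 and 0.0223 with the scanner's positive and significant flag. At least 2-fold higher was 1 of 9 measured genes, *Csrp3*, and at least 2-fold lower were 0 of 9. Among all 21638 genes measured, the same limits were passed by 1.01% upward and 1.42% downward. At 1.5-fold, 3 of the 9 were higher, *Csrp3*, *Nppa* and *Nppb*, and 0 were lower, while 3.79% of all genes were higher and 5.38% lower. *Nppa* and *Nppb* passed 1.5-fold in 6 of the 10 alternatives. They did not after normexp correction (0.28 for *Nppa*), with spike-in scaling (0.45 and 0.50) or in the 2 settings that count dim probes (0.47 and -0.049). Of the 6, outliers kept and the brightest probe used the same spots as the main value. The authors' log2 values nearly repeat quantile normalization, so the 6 are not separate checks.

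Log2 fold changes were more spread among dim genes. *Csrp3*, *Nppa*, *Nppb* and *Myh7* fell among the 5078 dimmest genes, with mean intensities up to 86.2, of which 3.92% were past 2-fold in either direction and 1.79% were higher. *Acta1*, *Ankrd1*, *Edn1* and *Rcan1* fell among the 5078 brightest, with mean intensities from 1750, of which 0.335% were past 2-fold. For the dimmest genes the middle 90% of log2 fold changes ran from -0.76 to 0.69, which includes *Nppa*, *Nppb* and *Myh7* and leaves *Csrp3* outside. For the brightest genes it ran from -0.28 to 0.37, which includes *Acta1*, *Ankrd1* and *Rcan1* and leaves *Edn1* outside.

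**Figure D2:**
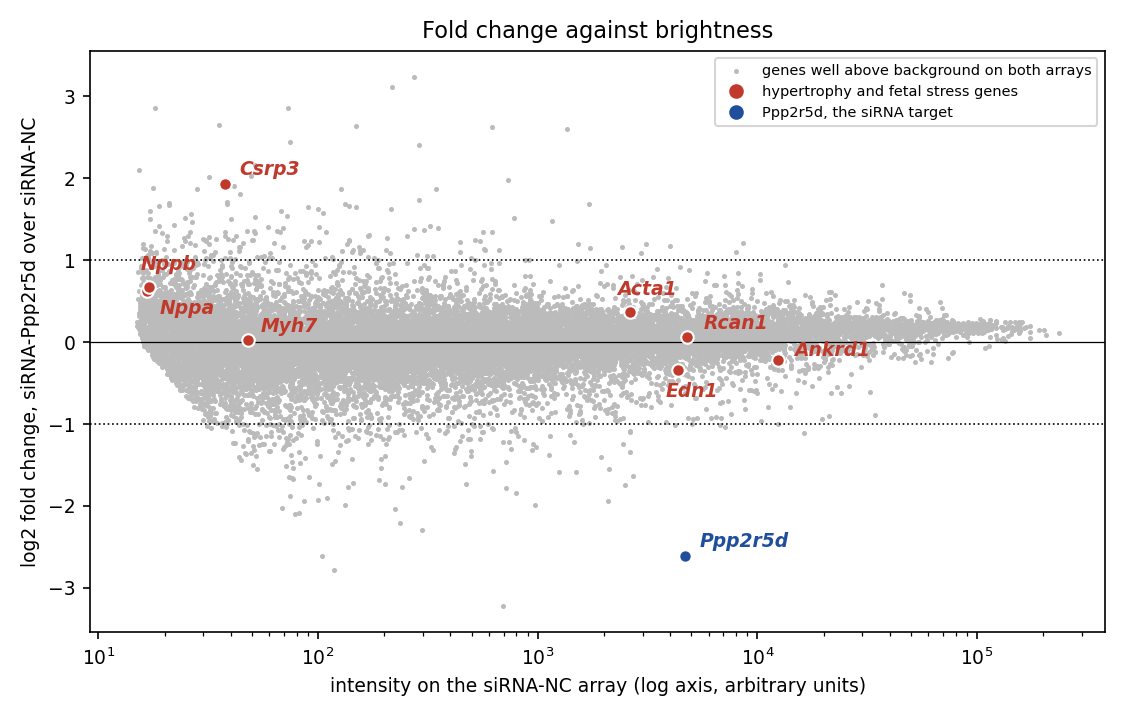
Log2 fold change of siRNA-*Ppp2r5d* over siRNA-NC (y axis) against intensity on the siRNA-NC array (x axis, log) for the 20311 genes well above background on both arrays (grey), with 8 of the 10 genes in red and *Ppp2r5d* in blue; dotted lines mark 2-fold. *Csrp3* at 1.93 is the only red point past 2-fold, and the spread of the grey points narrows with brightness.

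Genes of the same pathways were taken from lists written from general knowledge, and none of the 7 lists held a gene at least 2-fold changed. Of all 21638 genes measured, 1.01% were at least 2-fold higher and 1.42% lower. At these shares lists of this size would hold few such genes, so their absence is no result about the pathways. In the natriuretic peptide system, 6 of 10 genes were measured, with a median log2 fold change of 0.018 that was below 0 with cyclic loess, quantile and spike-in scaling and in the authors' log2 values. They ran from -0.33 for the clearance receptor *Npr3* to 0.41 for *Mme*, the peptide-degrading enzyme neprilysin. The ANP and BNP receptor *Npr1* and the ANP-activating protease *Corin* were well above background on neither array. In the endothelin system, the 3 measured genes were below 0 in all 6 other scalings and corrections too, namely the converting enzymes *Ece1* with -0.40 and *Ece2* with -0.23 and the receptor *Ednra* with -0.12. The receptor *Ednrb* was not well above background.

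In the calcineurin and NFAT list, 19 of 22 genes were measured on both arrays, 8 above 0 and 11 below, with a median of -0.036 that was above 0 after normexp correction. *Rcan2*, a paralog of *Rcan1*, had the highest value, 0.42, and *Nfatc4*, an NFAT factor of the heart, the lowest, -0.55. The catalytic subunit *Ppp3ca* had 0.31 and *Ppp3cb* -0.16. Among 20 measured genes of stretch sensing and the Z-disc, 9 were above 0 and 11 below, with a median of -0.050 that was likewise above 0 after normexp correction. The giant spring protein *Ttn* had 0.89 over 5 of its 6 probes, the ubiquitin ligase *Trim63* had 0.84, the Z-disc protein *Mypn* 0.82 and the LIM protein *Pdlim3* 0.79. These were the 4 genes of the list past 1.5-fold upward, beside 3.79% of all genes, and *Ttn* had 0.57 after normexp correction, which is under that limit. *Des*, desmin, was lowest at -0.42, but *Csrp2* was lowest with cyclic loess, quantile normalization and the authors' log2 values.

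Other isoform genes that differ between fetal, loaded and adult heart had a median of 0.23 over 13 genes, with 9 above 0 and 4 below, and 7 above 0 and 6 below with spike-in scaling, where the median was 0.050. *Myl3* had 0.90 from an intensity of 40.4, and *Myl4*, the atrial and fetal light chain, had 0.64 over 2 of its 3 probes. After normexp correction *Myl4* was highest with 0.57, so neither passed 1.5-fold. *Pdk4*, a brake on glucose oxidation, was lowest of those measured on both arrays at -0.25. The glucose carrier *Slc2a4* was lower by a bound of -0.83. *Actc1*, cardiac actin, had -0.099 and *Acta2* -0.021. Transcription factors of the programme had a median of -0.074 over 19 genes, 5 above 0 and 14 below, from -0.63 for the repressor *Klf15* to 0.19 for *Rest*. Other stretch and stress response genes had a median of 0.046 over 23 genes, which was below 0 with cyclic loess, quantile and spike-in scaling and in the authors' log2 values, and the highest value was 0.87 for *Adm*.

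**Figure D3:**
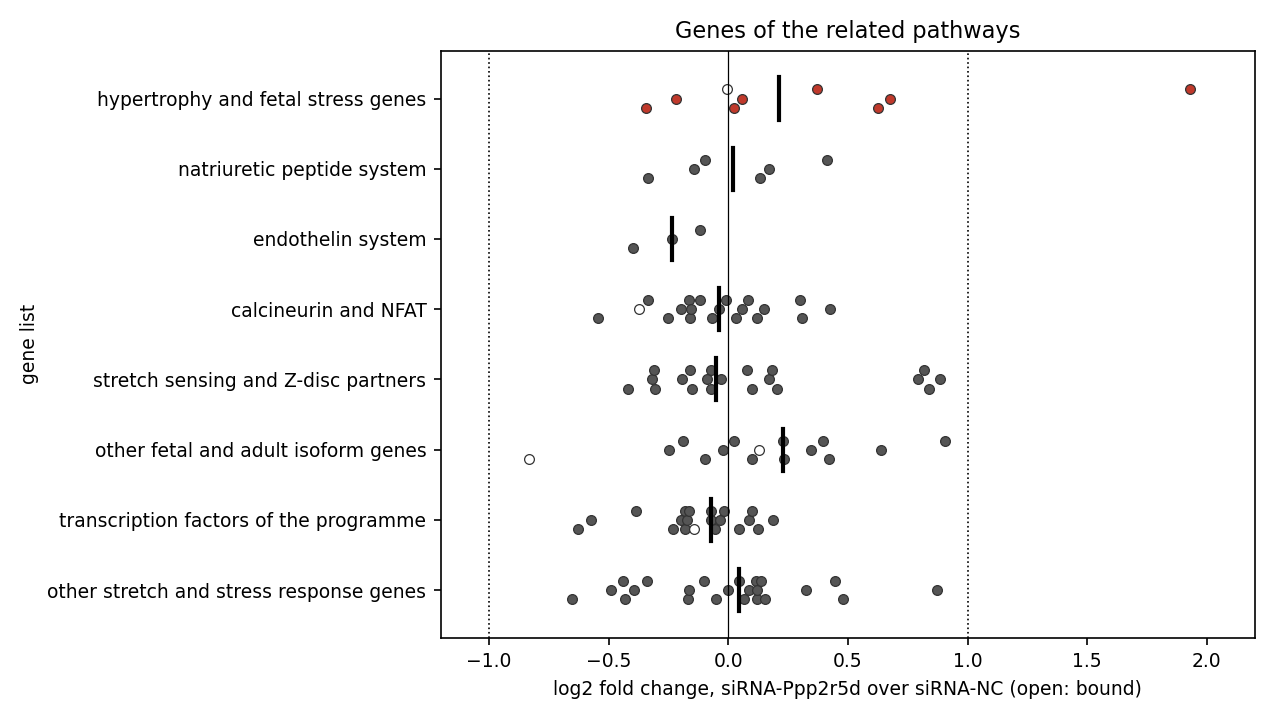
Log2 fold change of siRNA-*Ppp2r5d* over siRNA-NC for each measured gene of the 10 described genes (red) and of 7 other lists (grey); open points are bounds, black bars are medians of genes measured on both arrays and dotted lines mark 2-fold. *Csrp3* at 1.93 is the only point past 2-fold.

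Markers of other cell types moved in part. Of 6 smooth muscle markers, 5 were measured. *Cnn1*, calponin, had the highest value, 2.41 over 1 of its 2 probes, and *Tagln* had 0.85, while *Acta2*, *Smtn* and *Myh11* were between -0.38 and -0.021 and *Lmod1* was not well above background. The summed signal of the measured probes of these markers, in units of the 75th percentile, went from 305 to 311. For cardiomyocyte markers the sum was 5.89 and 7.95. Of the 4 measured on both arrays, *Ttn* had 0.89, *Tnnt2* 0.42, *Nkx2-5* 0.085 and *Tnni3* -0.19. For fibroblast markers the sum was 683 and 701, while 3 genes were above 0 and 4 below, with a median of -0.050. Among them *Lum* had 1.08, or 0.91 with spike-in scaling and 0.88 after normexp correction, and *Col1a2* was lowest at -0.32. Of 7 endothelial markers, 2 were measured on both arrays with a sum of 0.372 and 0.337, and *Cdh5*, *Kdr*, *Vwf* and *Emcn* were well above background on neither. Of 6 macrophage markers, 4 were measured, from -0.77 for *Cd68* to 0.13 for *Ptprc*, and *Adgre1* and *C1qa* were not. The sum of the measured macrophage probes was 7.26 and 5.44. Of 7 skeletal muscle markers, 4 were measured, from -0.36 for *Myh3* to 0.12 for *Myog*, and *Myf5*, *Pax7* and *Ckm* were not. Intensities were 760.0 and 537.4 for *Myh8*, 537.0 and 365.3 for *Myh3*, 450.9 and 348.5 for *Myod1* and 254.2 and 241.0 for *Myog*. By brightest probe, the cardiomyocyte marker *Tnni3* was dimmer, 54.14 and 45.97, and *Tnnt2*, *Nkx2-5* and *Ttn* were brighter. For the measured skeletal muscle probes the sum was 3.38 and 2.88. The part of any of these markers in the values of *Csrp3* or *Edn1* was not tested.

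Promoter sequences, from 250 bases before to 50 bases after an annotated start, were found in the RefSeq table for 9 of the 10 genes, at 12 starts on GRCm38.p6. They were searched on both strands for 7 motifs, the TATA box and motifs of factors known from this programme. A match is a description of letters only. The M-CAT motif of TEAD factors, CATTCC, was present for 5 of 9 genes (*Nppb*, *Acta1*, *Myh7*, *Ankrd1* and *Edn1*) and for 16.6% of the 27025 genes with a promoter. The GATA motif, AGATAA or TGATAA, was present for 4 of 9 (*Nppa*, *Nppb*, *Ankrd1* and *Edn1*) and for 21.0% of all. TATAAA was present for 3 of 9 and 15.7% of all, the AP-1 motif TGANTCA for 2 of 9 and 8.97%, and GGAAAA, the NFAT core, for 1 of 9 and 26.1%. The CArG box of SRF was found for *Acta1* and for 1.81% of all genes, and the MEF2 site for *Xirp2* and for 3.70%. No matches of different motifs overlapped in these promoters. The log2 fold changes of the 5 genes with an M-CAT motif were 0.68, 0.37, 0.022, -0.22 and -0.34 in the order above, so they had no direction in common. The sign of *Nppb* rested on the probe counted, and *Myh7* was under its scanner error. *Acta1* stayed above 0 and *Ankrd1* and *Edn1* below 0 in every alternative, though several of these could hardly move such bright probes.

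The promoters of *Nppb*, *Acta1* and *Ankrd1* are shown because they hold 10 of the 20 matches and an M-CAT motif each, and that of *Csrp3*, at its first listed start, because this gene changed most. Capitals mark the matches, and each sequence reads along its gene.
*Nppb*, chr4:147985650-147985949, plus strand: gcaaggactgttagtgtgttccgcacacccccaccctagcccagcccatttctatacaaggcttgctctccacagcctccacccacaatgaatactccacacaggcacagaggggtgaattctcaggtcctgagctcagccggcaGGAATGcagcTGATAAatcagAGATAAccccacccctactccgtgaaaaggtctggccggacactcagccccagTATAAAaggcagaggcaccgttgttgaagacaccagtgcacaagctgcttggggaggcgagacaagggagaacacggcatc
*Acta1*, chr8:123894726-123895025, minus strand: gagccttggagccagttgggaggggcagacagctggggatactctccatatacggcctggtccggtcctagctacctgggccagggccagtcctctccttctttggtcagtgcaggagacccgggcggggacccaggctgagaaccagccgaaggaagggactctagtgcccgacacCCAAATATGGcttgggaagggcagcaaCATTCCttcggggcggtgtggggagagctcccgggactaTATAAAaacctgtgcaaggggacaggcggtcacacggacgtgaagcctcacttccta
*Ankrd1*, chr19:36119795-36120094, minus strand: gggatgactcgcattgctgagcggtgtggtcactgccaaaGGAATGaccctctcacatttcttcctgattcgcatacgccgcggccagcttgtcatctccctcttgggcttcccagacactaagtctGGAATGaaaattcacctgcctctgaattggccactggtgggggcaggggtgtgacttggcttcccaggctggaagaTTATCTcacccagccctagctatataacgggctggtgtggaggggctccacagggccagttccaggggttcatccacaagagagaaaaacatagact
*Csrp3*, chr7:48848002-48848301, minus strand: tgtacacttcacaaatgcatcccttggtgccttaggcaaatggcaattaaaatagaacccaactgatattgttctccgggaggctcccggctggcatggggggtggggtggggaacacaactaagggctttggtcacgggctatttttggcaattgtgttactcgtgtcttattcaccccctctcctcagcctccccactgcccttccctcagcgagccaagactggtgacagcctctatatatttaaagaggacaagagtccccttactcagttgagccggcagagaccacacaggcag
In *Nppb* the M-CAT match at -105 lies next to GATA matches at -95 and -84, with the TATA match at -31. In *Ankrd1* M-CAT matches lie at -210 and -123. The *Csrp3* window holds no match to the 7 motifs, which says only that these letters are not in it.

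**Figure D4:**
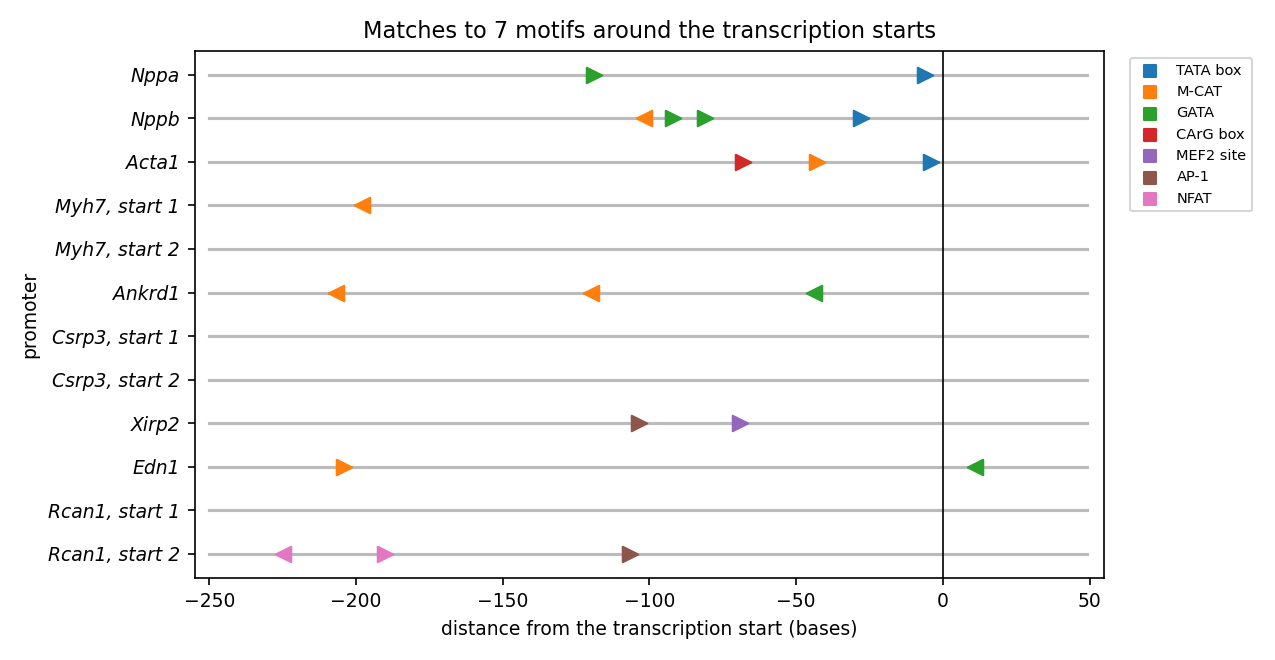
Position of matches to 7 motifs (colours) in the 12 promoters of 9 genes, as distance in bases from the annotated start (x axis), with arrowheads pointing right for the strand of the gene and left for the other strand. M-CAT matches are seen for 5 genes and GATA matches for 4, and both *Csrp3* starts are without a match.

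**Figure D5:**
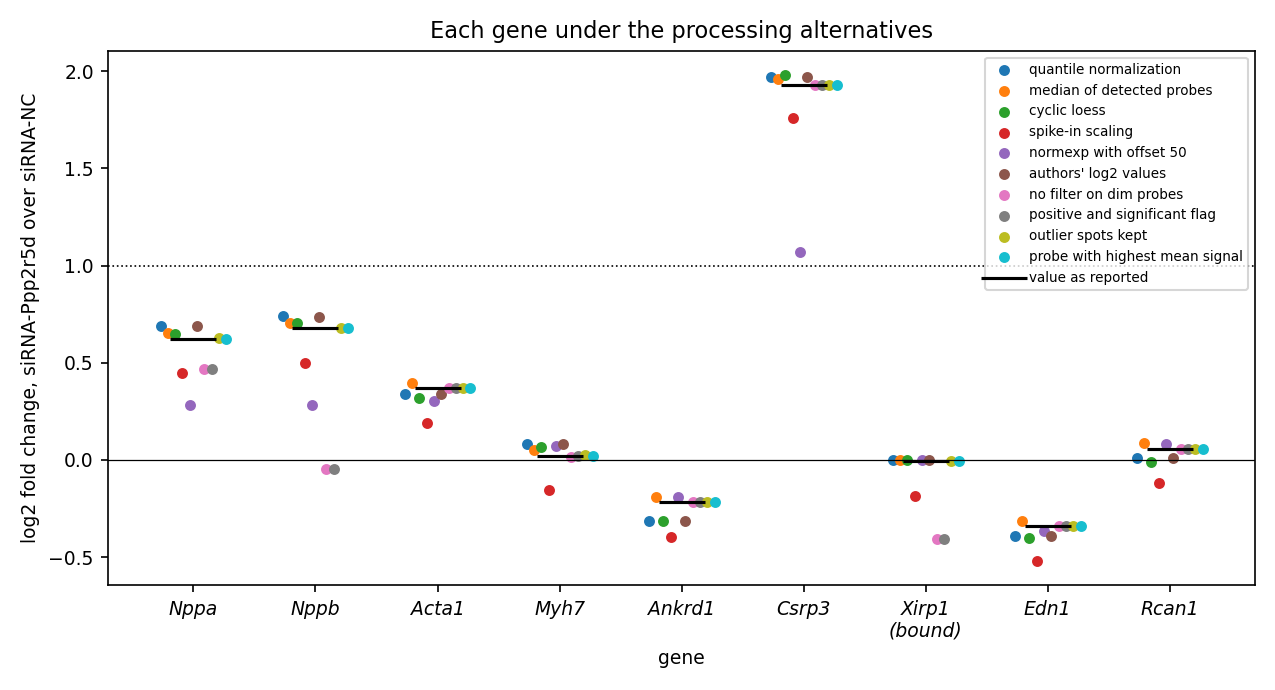
Log2 fold change of siRNA-*Ppp2r5d* over siRNA-NC for the 9 measured genes (x axis) under 10 processing alternatives (coloured points) beside the value as reported (black bar); the dotted line marks 2-fold and *Xirp1* is a bound. *Csrp3* runs from 1.07 to 1.98, all past 2-fold, while *Nppb* runs from -0.049 to 0.74.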

How the data were processed

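RNA of 1 siRNA-NC and 1 siRNA-*Ppp2r5d* culture of MCMs was hybridized to 1 one-colour Agilent array each, grouped by the sample labels. The authors deposited spot intensity, background-corrected by Agilent Feature Extraction 10.7.1.1 and not normalized between arrays, with scanner flags as other columns. Their deposited log2 values, of a normalization not given in the sources used here, lay within a median of 0.000127 of quantile normalized log2 intensities.

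Control and outlier spots (226 and 188) were left out, spots of a probe were averaged as log2 with no pseudocount, and arrays were scaled on their 75th percentile. Of 59305 spots, 59.93% and 59.31% were well above background and 0 were saturated. A gene is the mean over probes well above background on both arrays. With 1 array above, the value is a bound, the dim side being set to its own signal or to the array's detection limit, whichever was higher. Over 144 probes with 10 spots each, the log2 fold change had a median SD of 0.039 between spots. This and the scanner error cover spots, not cultures, and the number of arrays limits the precision.

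With 1 array per condition no test was run. The genes, lists, markers and motifs were chosen with earlier results of these data known. Named were all 10 genes, from each list genes past 2-fold or else the highest and lowest, and others chosen after their values were seen. The lowest gene of 1 list is not reported here. Alternatives were cyclic loess, quantile, detected-probe median and spike-in scaling (10 probes), normexp (offset 50), the log2 values as deposited by the authors, 2 filters on dim spots, outliers kept, the brightest probe, and thresholds of 1.5-fold and 4-fold. Gene steps were tested on simulated data. R 4.3.3, limma 3.58.1, Python 3.11.15, NumPy 2.4.6, pandas 2.3.3 and matplotlib 3.10.9 were used.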

Additional observations from a re-analysis of the deposited data

How the results depend on the processing

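No paired analysis was possible because each condition had a single array, and no replicate could be left out. The count of 1 gene at least 2-fold higher and 0 lower was the same in all 10 alternatives that kept the threshold. A threshold of 1.5-fold gave 3 higher and one of 4-fold gave 0, and a laxer limit can never give fewer genes. The median log2 fold change of the 8 genes, 0.21, moved to 0.0355 with spike-in scaling, to 0.0331 over 10 genes without a filter on dim probes, and to 0.0225 over 9 genes with the scanner's positive and significant flag as filter. By construction, the last 2 settings add dim probes and spike-in scaling shifts every gene by 1 constant, with the all-gene median at -0.15 in place of 0.025. *Nppb* had -0.049 in those 2 settings. Over the whole array, 219 genes passed 2-fold upward and 308 downward, against 132 and 545 with spike-in scaling, 62 and 44 with normexp, 937 and 1106 without a filter and 1078 and 1291 with the positive and significant flag. Signal over background limits *Nppa*, *Nppb*, *Xirp1* and *Xirp2*.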
